A study of Mus musculus with 6 samples.

Results

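The mast cell integrins described here are 10 genes, chosen by symbol from the 17890 genes of the series: the alpha chains Itga2, Itga2b, Itga4, Itga5, Itga6 and Itgae and the beta chains Itgb1, Itgb2, Itgb3 and Itgb7. All 10 were in the table and all 10 passed the expression filter. Their transcripts were measured by RNA sequencing in mast cells of mouse lymph nodes, as 3 libraries of uninvolved nodes (uLN) and 3 of nodes to which a tumour had spread (mLN). Mast cells of either group carry no genotype or treatment in the labels, and the mouse strain, age, tumour and method of cell isolation are not stated in the labels. Nothing in the labels says that the 3 libraries of a group came from separate animals, and the p-values below then reflect library-to-library spread alone, possibly of technical origin. Whether a change reflects the number of cells of a type or the RNA per cell cannot be told apart in such bulk samples.

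Integrins are cell surface receptors built from 1 alpha and 1 beta chain, which join the matrix or a counter-receptor on another cell to the actin skeleton. A beta chain can take several alpha partners, and the pairing sets the ligand. Mast cells use beta 7 and beta 1 integrins to enter and settle in tissues, and they bind vitronectin, fibronectin and fibrinogen through beta 3 and beta 1 integrins. Binding is switched on from inside the cell, when talin and kindlin attach to the tail of the beta chain.

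The libraries held 17643916 to 17799420 estimated counts each. Values are CPM, the counts scaled to library size with TMM factors. Calls rest on edgeR's quasi-likelihood test, with p-values adjusted by Benjamini-Hochberg over all 12706 tested genes and a threshold of 0.05. Of 10 mast cell markers, all of them tested, 3 were higher and 6 lower in mLN. Over all tested genes 33.2% were called higher and 34.2% lower, the background for each marker list below. Cpa3, the mast cell carboxypeptidase, measured 14734 ± 400.0 CPM in uLN and 10920.1 ± 799 in mLN, and Kit, the receptor for stem cell factor, 7756 ± 191 and 3139 ± 46.6 (SD, n = 3). The 3 that rose included abundant ones. Cma1, a chymase gene, measured 4783 ± 206 CPM in uLN and 9607 ± 729 in mLN (SD, n = 3). Tpsb2, a tryptase gene, measured 3207 ± 140 and 6605 ± 241 CPM (SD, n = 3). The chymase gene Mcpt4, also among the 3, was low, at 6.38 ± 1.07 CPM in uLN and 25.7 ± 1.10 in mLN (SD, n = 3). Transcripts of epithelial cells and fibroblasts were most abundant in mLN replicate 1. By the chi-square statistic of counts per gene, given without a p-value, mLN replicate 3 stood apart from mLN replicates 1 and 2. Its medians were 2.58 and 2.48, against 0.736 between replicates 1 and 2. Between the uLN libraries the medians were 0.655, 0.699 and 0.7.

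All 10 integrins were called, 6 higher and 4 lower in mLN. Itga4, Itga5, Itga6, Itgb1, Itgb2 and Itgb3 rose, and Itga2, Itga2b, Itgae and Itgb7 fell. Among all tested genes 67.4% were called, 33.2% higher and 34.2% lower, so a call by itself sets a gene little apart in this comparison. The libraries of the 2 groups did not overlap for any of the 10, as was the case for 72.9% of all tested genes. The median log2 fold change of the 10 genes was 0.40, against -0.01 over all tested genes. Their summed CPM went the other way, from 2793.4 to 2842.6 in the uLN libraries to 2186.4 to 2299.5 in the mLN libraries. Itga2b and Itgb7, the most abundant members, were among those that fell. Changes ran from a 2.76-fold rise of Itga6 to a 2.15-fold fall of Itgae, and the smallest were a 1.25-fold fall of Itgb7 and a 1.26-fold rise of Itgb3. With the coefficient of variation between replicates set to 0.2 in place of the estimated spread, fewer genes were called. Then 3 members were called higher (Itga6, Itgb1 and Itgb2) and 2 lower (Itga2b and Itgae). At that setting 2145 of the 12706 tested genes were called higher and 1913 lower.

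**Figure D1:**
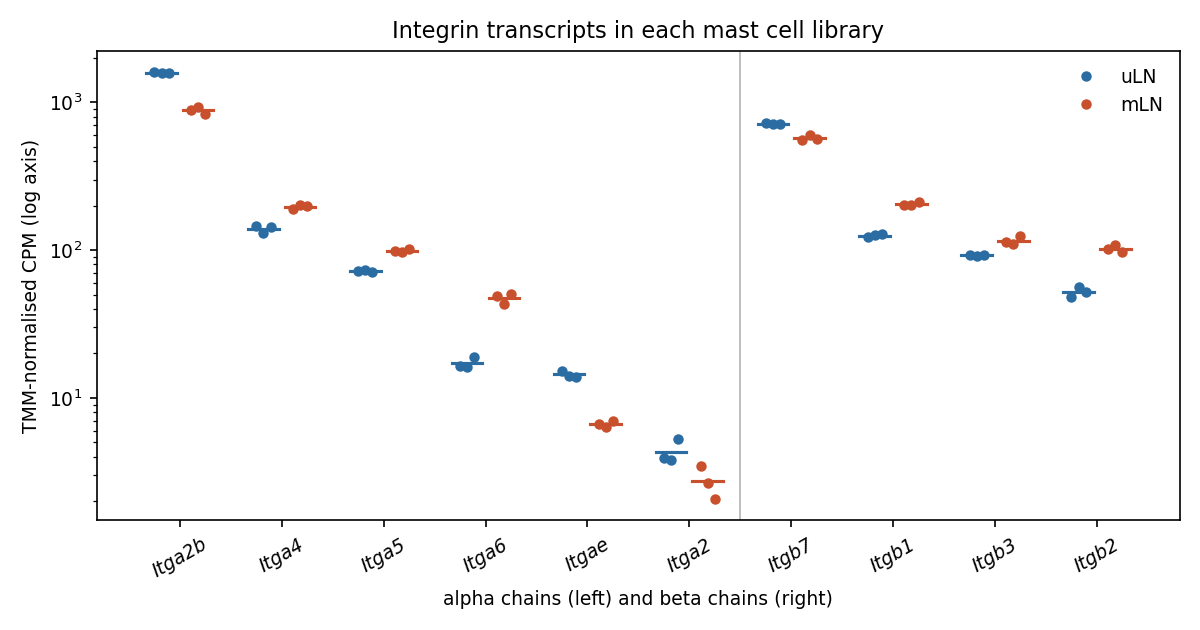
TMM-normalised CPM (log axis) of the 10 integrins in each library, with alpha chains left and beta chains right. Points are libraries and bars are means over the 3 libraries of uLN (blue) or mLN (red). The groups are apart for every gene, and Itga2b and Itgb7 are the highest chains of each kind on this axis, which is not scaled to gene length.

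To compare genes with one another, CPM were divided by the length of the union of annotated exons. On that scale Itga2b was the most abundant alpha chain and Itgb7 the most abundant beta chain in both groups. Itga2b stood at 289.8 ± 3.05 CPM per kb in uLN and 162 ± 9.36 in mLN (SD, n = 3). Itgb7 stood at 259 ± 3.44 CPM per kb in uLN and 207 ± 8.27 in mLN (SD, n = 3). The next alpha chains in uLN were Itga5 at 14.6 ± 0.264 and Itga4 at 9.97 ± 0.571 CPM per kb (SD, n = 3). Below them came Itgav, which is not a member, at 4.28 ± 0.0917, Itgae at 3.14 ± 0.153 and Itga6 at 1.90 ± 0.161 CPM per kb (SD, n = 3). Itga2, at 0.606 ± 0.117 CPM per kb (SD, n = 3), also lay below the non-members Itgal, Itgax, Itgam and Itga10. Itgal, at 1.86 ± 0.124 CPM per kb in uLN (SD, n = 3), lay within the spread of Itga6. Itgae and Itga6 changed places in uLN when the longest transcript was used as the length. In mLN the order was Itga2b, Itga5, Itga4, Itgav, Itga6 and, below Itgam, Itgax and Itgal, Itgae, then the non-member Itga10 and Itga2. Among beta chains in uLN, Itgb1 followed Itgb7 at 30.7 ± 0.827 CPM per kb, and Itgb2 (17.1 ± 1.28) and Itgb3 (15.6 ± 0.213) overlapped between libraries (SD, n = 3). In mLN these 3 beta chains were apart, at 50.0 ± 1.37, 33.5 ± 1.82 and 19.6 ± 1.25 CPM per kb (SD, n = 3).

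The make-up of the family was less dominated by a single chain in mLN. Itga2b held 87.6% ± 0.175 of the alpha chain reads per exon length in uLN and 72.9% ± 1.79 in mLN (SD, n = 3, over 17 alpha chains in the table). Itgb7 held 79.9% ± 0.676 of the beta chain reads per exon length in uLN and 66.5% ± 0.923 in mLN (SD, n = 3, over 9 beta chains). The share of Itgb1 among beta chains was 9.50% ± 0.296 in uLN and 16.1% ± 0.687 in mLN, and that of Itgb2 was 5.27% ± 0.419 and 10.7% ± 0.421 (SD, n = 3). Among alpha chains, Itga5 held 4.41% ± 0.0920 and 9.06% ± 0.501, and Itga4 held 3.02% ± 0.158 and 6.31% ± 0.265 (SD, n = 3). Shares within a chain type depend on each other, since each is a part of the same total. The fall of Itga2b, from 289.8 CPM per kb in uLN to 162 in mLN, therefore raised the shares of the other alpha chains. The transcripts of Itga5 and Itga4 rose by less than their shares, 1.38-fold and 1.40-fold. No library of 1 group reached into the range of the other for the 6 shares given above. That is a description, since the members they are built from were already apart between the groups. The share of Itga2 did overlap, at 0.161% to 0.225% in uLN and 0.135% to 0.218% in mLN. With 3 libraries a group, an exact permutation test cannot go below a p of 0.1, so no test of the shares is given.

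**Figure D2:**
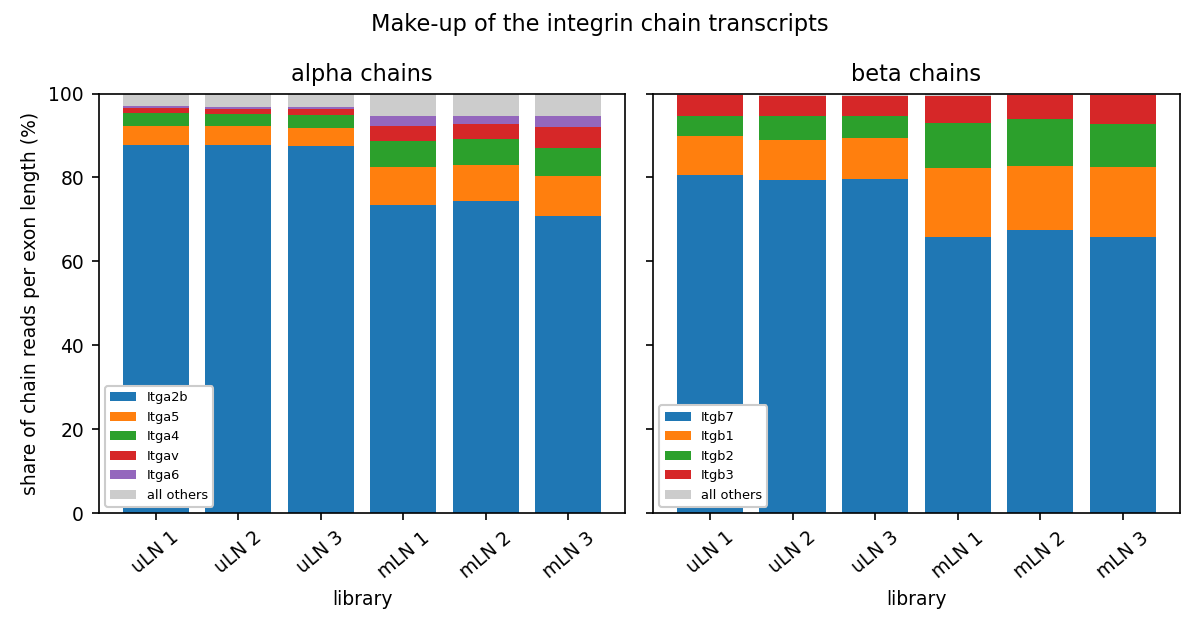
Share (%) of alpha chain reads (left) and beta chain reads (right) per exon length held by each named integrin, with 1 bar per library. Itga2b fills 87.4% to 87.8% of the alpha bars in uLN and 70.9% to 74.3% in mLN, and Itgb7 fills 79.4% to 80.7% and 65.9% to 67.5% of the beta bars.

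Itga2b and Itgb7, the leading chains, both fell. Itga2b encodes alpha IIb (CD41), the fibrinogen receptor chain of platelets, which mast cells also carry. It measured 1599, 1573 and 1569 CPM in uLN replicates 1, 2 and 3 and 888, 933 and 831 CPM in mLN. Every mLN library was far below every uLN library, with little spread inside either group. The log2 fold change was -0.84 ± 0.05 (SE), a 1.79-fold fall (adjusted p = 1.73e-07, edgeR's quasi-likelihood test). Itgb7 encodes beta 7, which pairs with alpha 4 to bind MAdCAM-1 and with alpha E to bind E-cadherin. It measured 728, 710.2 and 712 CPM in uLN and 556, 599 and 565 CPM in mLN. Its groups were also apart, by a smaller margin, and the log2 fold change was -0.32 ± 0.04 (SE, adjusted p = 7.24e-05, edgeR's quasi-likelihood test).

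The sequences below are the 250 bases before a RefSeq start of these 2 genes and, for contrast, of Itga4 and Itgb1, whose chains rose. They show windows upstream of starts of members that moved in opposite directions, read 5′ to 3′ on the gene's strand in GRCm38.p6. RefSeq promoters were matched for 6 of the 10 members, and none is shown for Itga6, Itgae, Itgb2 and Itgb3. Capitals mark AGGAAG on either strand (CTTCCT on the other), the core of many ETS family sites.
Itga2b, chr11:102469884-102470133, minus strand: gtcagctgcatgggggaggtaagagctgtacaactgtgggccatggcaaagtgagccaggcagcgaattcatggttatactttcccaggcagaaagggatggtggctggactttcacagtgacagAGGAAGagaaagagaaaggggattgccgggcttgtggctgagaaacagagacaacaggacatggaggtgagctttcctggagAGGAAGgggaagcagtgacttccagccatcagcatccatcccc
Itgb7, chr15:102231936-102232185, minus strand: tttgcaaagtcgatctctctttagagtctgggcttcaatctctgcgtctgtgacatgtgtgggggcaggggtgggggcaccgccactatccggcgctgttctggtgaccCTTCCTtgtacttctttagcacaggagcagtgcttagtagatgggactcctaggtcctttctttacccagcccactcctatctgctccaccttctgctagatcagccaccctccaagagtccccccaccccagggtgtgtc
Itga4, chr2:79255176-79255425, plus strand: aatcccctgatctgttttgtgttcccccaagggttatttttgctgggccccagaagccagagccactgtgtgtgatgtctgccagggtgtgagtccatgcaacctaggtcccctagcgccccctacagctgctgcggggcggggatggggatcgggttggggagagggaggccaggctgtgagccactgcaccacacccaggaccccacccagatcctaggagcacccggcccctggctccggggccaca
Itgb1, chr8:128685404-128685653, plus strand: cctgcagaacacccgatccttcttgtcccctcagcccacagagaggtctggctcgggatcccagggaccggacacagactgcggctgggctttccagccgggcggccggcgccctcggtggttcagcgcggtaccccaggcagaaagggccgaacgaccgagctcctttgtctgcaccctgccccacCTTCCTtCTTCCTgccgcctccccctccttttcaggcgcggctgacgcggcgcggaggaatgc
The ETS core was present 2 times before Itga2b, starting 125 and 43 bases upstream, 1 time before Itgb7, starting 141 bases upstream, and 2 times before Itgb1, starting 63 and 56 bases upstream, with no match overlapping another. It was in 3 of the 6 member windows and in 29.5% of 32851 windows of the same length. Itga4 held 1 match to the RUNX core TGTGGT, read on either strand, 60 bases upstream, which 14.0% of all windows hold. None of the 6 windows held the GATA core AGATAA, the E-box letters CACGTG or the AP-1 letters TGANTCA on either strand, which are in 9.99%, 6.02% and 6.75% of all windows. In the Itga2b window 180 of the 250 bases lie in exons of another GENCODE transcript of that gene. The Itgb7 window lies inside the RefSeq span of Itgb7, which runs to base 102233405, so it precedes a start within the gene and not the outermost one.

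Itgae, the alpha E chain (CD103) that pairs with beta 7 alone, fell with it. It measured 15.2, 14.2 and 13.8 CPM in uLN and 6.68, 6.39 and 7.0 CPM in mLN. The highest mLN library was still well below the lowest uLN library. Its log2 fold change was -1.10 ± 0.10 (SE), a 2.15-fold fall (adjusted p = 3.21e-06, edgeR's quasi-likelihood test). Haspin lies within an intron of Itgae on the other strand, and it rose by 0.60 on the log2 scale, opposite to Itgae. Whether the counting used strand is not given in the sources used here. T cells can also carry alpha E. The T cell markers summed to 11.7 to 13.0 CPM in uLN and 6.52 to 8.90 CPM in mLN over 10 genes, and 3 of 5 tested members fell while 0 rose. Cd247, the zeta chain of the receptor complex, fell 1.76-fold and Cd28 3.90-fold. The defining T cell genes Cd3g and Cd5 had 0 or 1 count in each library and Cd3d had at most 7.71, and the part of T cells in the Itgae result was not tested.

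Itga2, which encodes the collagen-binding alpha 2 chain, was the least abundant member. It measured 3.90, 3.78 and 5.29 CPM in uLN and 3.45, 2.67 and 2.07 CPM in mLN. The gap between the groups was narrow, from 3.45 to 3.78 CPM. The log2 fold change was -0.66 ± 0.23 (SE, adjusted p = 0.0260, edgeR's quasi-likelihood test), on 36 to 92 counts per library. This call was lost without uLN replicate 3 (log2 change of -0.50, adjusted p = 0.127), without mLN replicate 2 (-0.64, 0.0609) and without mLN replicate 3 (-0.49, 0.0679), all adjusted p from edgeR.

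Itga4, Itga5 and Itga6, the alpha chains that bind VCAM-1, fibronectin and laminin, rose. Itga4 measured 145, 130.3 and 143 CPM in uLN and 189, 200.3 and 198 CPM in mLN, a 1.40-fold rise (log2 change of 0.49 ± 0.05, SE, adjusted p = 1.52e-05, edgeR). All mLN libraries were above all uLN libraries. The 3′ end of Itga4 overlaps Cerkl, which lies on the other strand and was not called (log2 change of 0.18, at 11.02 ± 1.87 CPM in uLN and 12.5 ± 1.90 in mLN, SD, n = 3). Itga5 measured 71.8, 73.3 and 70.7 CPM in uLN and 99.1, 97.1 and 101 CPM in mLN. The libraries of each group lay close together, and its log2 change was 0.46 ± 0.05 (SE, adjusted p = 7.95e-06, edgeR). Itga6 measured 16.4, 16.3 and 18.8 CPM in uLN and 48.6, 43.1 and 50.6 CPM in mLN, the largest rise among the members. Its log2 change was 1.47 ± 0.08 (SE, adjusted p = 1.94e-07, edgeR). Keratinocytes also carry alpha 6, and epithelial markers summed to 11.7 to 21.4 CPM in uLN and to 154, 19.8 and 37.7 CPM in mLN replicates 1, 2 and 3. Over that list of 8 genes, 3 of 4 tested members rose and 0 fell, among them Krt5 and Dsp, which encode a basal keratin and desmoplakin. Without uLN replicate 3 both calls were lost (Krt5 log2 change of 2.15, adjusted p = 0.057; Dsp 2.90, adjusted p = 0.0596, edgeR). Without mLN replicate 1 the Krt5 rise went from 5.61-fold to 2.07-fold, and the Dsp rise from 8.75-fold to 2.21-fold, no longer called (adjusted p = 0.0626, edgeR). Epcam had 0 to 2 counts in every library. Without mLN replicate 1 the log2 change of Itga6 was 1.45, and the part of epithelial cells in its rise was not tested.

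The beta chains Itgb1, Itgb2 and Itgb3 rose while Itgb7 fell. Itgb1, the shared partner of alpha 2, alpha 4, alpha 5 and alpha 6, measured 122, 126 and 129 CPM in uLN and 202, 200.3 and 211 CPM in mLN. This was a 1.63-fold rise with no overlap (log2 change of 0.70 ± 0.04, SE, adjusted p = 3.75e-07, edgeR). Itgb2, the leukocyte beta 2 chain (CD18), measured 48.2, 56.0 and 52.1 CPM in uLN and 101, 108 and 96.9 CPM in mLN. Its 1.96-fold rise was the largest among the beta chains (log2 change of 0.97 ± 0.07, SE, adjusted p = 5.57e-07, edgeR). Itgb3, partner of alpha IIb and alpha V, measured 93.2, 90.6 and 92.0 CPM in uLN and 113, 109.6 and 124 CPM in mLN. It rose by the least of the 6 (log2 change of 0.33 ± 0.05, SE, adjusted p = 0.000316, edgeR), still outside the spread of the libraries.

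The ratios of chains that pair with each other, or that share a partner, are given as a description, since the members they are built from were already apart between the groups. Per exon length, Itga2b was 18.6, 18.8 and 18.4 times as abundant as its partner Itgb3 in the uLN libraries and 8.51, 9.20 and 7.26 times in the mLN libraries. Itgb7 was 26.0 ± 1.32 times as abundant as Itga4 in uLN and 14.8 ± 0.364 times in mLN (SD, n = 3). Against Itgae, its other partner, Itgb7 stood at 82.4 ± 2.96 times in uLN and 142 ± 11.4 times in mLN (SD, n = 3). The ratio of Itgb7 to Itgb1, the beta chains that share alpha 4, was 8.42 ± 0.332 in uLN and 4.14 ± 0.236 in mLN (SD, n = 3). The ratio of Itgb1 to Itga5, the fibronectin receptor, was 2.11 ± 0.0783 in uLN and 2.49 ± 0.0270 in mLN (SD, n = 3). The size of these ratios depends on the length used, which is the same in both groups. The exon union and the longest transcript are 5454 and 3437 bases for Itga2b and 13978 and 9767 for Itga4. They are 5901 and 5784 bases for Itgb3 and 2770 and 2683 for Itgb7. The ratios are of transcripts, and how much protein of each pair reached the surface was not measured.

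**Figure D3:**
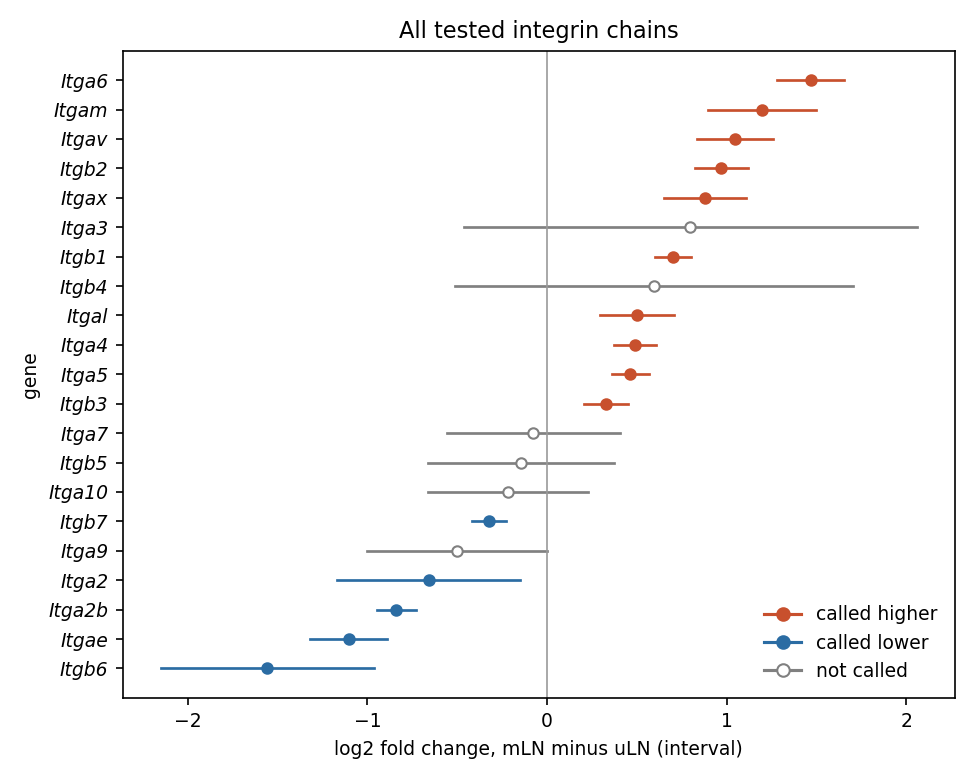
Log2 fold change (mLN minus uLN) of the 21 tested integrin chains, with 95% intervals that are not adjusted for multiple tests. Of these chains 10 were called higher (red), 5 lower (blue) and 6 not called (open grey), and Itgb6 and Itga6 lie at the ends.

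The table holds 26 of the 27 integrin chains listed, and 11 chains besides the members were tested. Of these, 4 rose and 1 fell, where 33.2% and 34.2% of all tested genes did. Itgav, the alpha V chain that binds vitronectin with beta 3, rose 2.07-fold, at 45.9 ± 0.986 CPM in uLN and 95.0 ± 14.9 in mLN (SD, n = 3). The alpha partners of beta 2 rose with it: Itgal (LFA-1) 1.42-fold, Itgam (Mac-1, CD11b) 2.29-fold and Itgax (CD11c) 1.84-fold. Itgam stayed low, at 6.86 ± 0.974 CPM in uLN and 15.8 ± 2.26 in mLN (SD, n = 3). Itgb6, an epithelial beta chain, fell 2.95-fold from 3.08 ± 0.0851 to 1.04 ± 0.381 CPM (SD, n = 3), resting on 52 to 55 counts in the uLN libraries and 14 to 27 in the mLN libraries. Itga3, Itga7, Itga9, Itga10, Itgb4 and Itgb5 were not called. Their 95% intervals of the log2 change were widest for Itga3 (-0.46 to 2.06) and Itgb4 (-0.51 to 1.71), laminin-binding chains of epithelia, which had 26 and 64 counts in mLN replicate 1 against 8 to 19 in the other mLN libraries. Without mLN replicate 1 the log2 change of Itgb4 was -0.32, and Itga9 was called lower (-0.66, adjusted p = 0.0423, edgeR). Itga1, Itga8, Itga11, Itgb8 and Itgb2l had at most 5.67 counts in any library and were not tested.

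Macrophages and dendritic cells carry beta 2 integrins too. Their 12 markers summed to 138 to 186 CPM in uLN and 216 to 247 CPM in mLN, with 2 of 10 tested members higher and 6 lower. Cd68, a lysosomal glycoprotein, rose 3.62-fold and Lyz2, lysozyme, fell 1.34-fold, a call lost without uLN replicate 2 (adjusted p = 0.0504, edgeR). Adgre1 rose 2.28-fold. The other falls were those of Mertk (3.06-fold), Cd163 (2.64-fold), C1qc (2.25-fold), Csf1r (1.98-fold) and C1qb (1.94-fold). The complement gene C1qa had 2 to 11 counts per library. Neutrophil markers summed to 17.9 to 22.9 CPM in uLN and 15.9 to 17.9 CPM in mLN, with S100a8 and S100a9 at 0 to 3 counts. Of 2 tested members 1, the chemokine receptor Cxcr2, fell (1.27-fold, adjusted p = 0.0335, edgeR). That call was lost with library size alone (adjusted p = 0.0561), with DESeq2 (0.0643) and in the edgeR fits without uLN replicate 1 (0.051), uLN replicate 2 (0.168), mLN replicate 1 (0.0792) or mLN replicate 2 (0.0926). B cell markers summed to 2.34 CPM or less in each library. Basophils carry beta 1 and beta 2 integrins as well, and of 4 tested basophil markers 2 rose and 1 fell. Prss34, a basophil protease that some mast cells also make, rose 2.86-fold, and Cd200r3, a receptor of basophils and mast cells, rose 1.53-fold, while Cpa3, shared with mast cells, fell 1.35-fold. Mcpt8, the defining basophil protease, was at 1.07 ± 0.0707 CPM in uLN and 1.12 ± 0.399 in mLN (SD, n = 3) and was not called. Of 7 endothelial markers 2 were tested, of which Tek, the angiopoietin receptor, fell 2.50-fold and Pecam1 was not called. The part of these cells in the rise of Itgb1, Itgb2, Itgal, Itgam and Itgax was not tested.

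Platelets carry alpha IIb, beta 3 and alpha 2. Their 11 listed markers in the table summed to 486 to 536 CPM in uLN and to 402, 393 and 282 CPM in mLN replicates 1, 2 and 3, of which Gp1ba gave most. Gp1ba, a chain of the platelet receptor for von Willebrand factor, fell 1.38-fold, at 399 ± 23.9 CPM in uLN and 289 ± 56.0 in mLN (SD, n = 3). Its partner chain Gp1bb had at most 4.40 counts in any library, and Ppbp, Clec1b and Treml1 had 0 to 3. Pf4, platelet factor 4, rose 9.18-fold, with 3 to 7 counts in the uLN libraries and 38 to 51 in the mLN libraries. In that list 2 of 5 tested members rose and 2 fell. The part of platelets in the results for Itga2b, Itgb3 and Itga2 was not tested.

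The molecules that switch integrins on changed in both directions. Of 19 tested activators and tail-binding adaptors 7 rose and 8 fell, with a median log2 change of -0.02. For comparison, 67.4% of all tested genes were called. Tln1, talin 1, which opens the integrin by binding the beta tail, was the most abundant in CPM and fell from 1555 ± 36.5 to 1247 ± 24.5 (SD, n = 3). Fermt3, kindlin 3, its partner on the tail in blood cells, fell 1.42-fold from 414 ± 4.91 CPM (SD, n = 3). Sharpin, an inhibitor that binds alpha tails, fell 1.58-fold. On the side of inside-out signalling, Rasgrp1, an exchange factor for Ras, rose 2.09-fold, at 21.2 ± 1.43 CPM in uLN and 44.2 ± 3.34 in mLN (SD, n = 3). The adaptors Skap1 and Fyb (ADAP), which bring Rap1 effectors to the membrane, rose 1.73-fold and 1.34-fold.

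**Figure D4:**
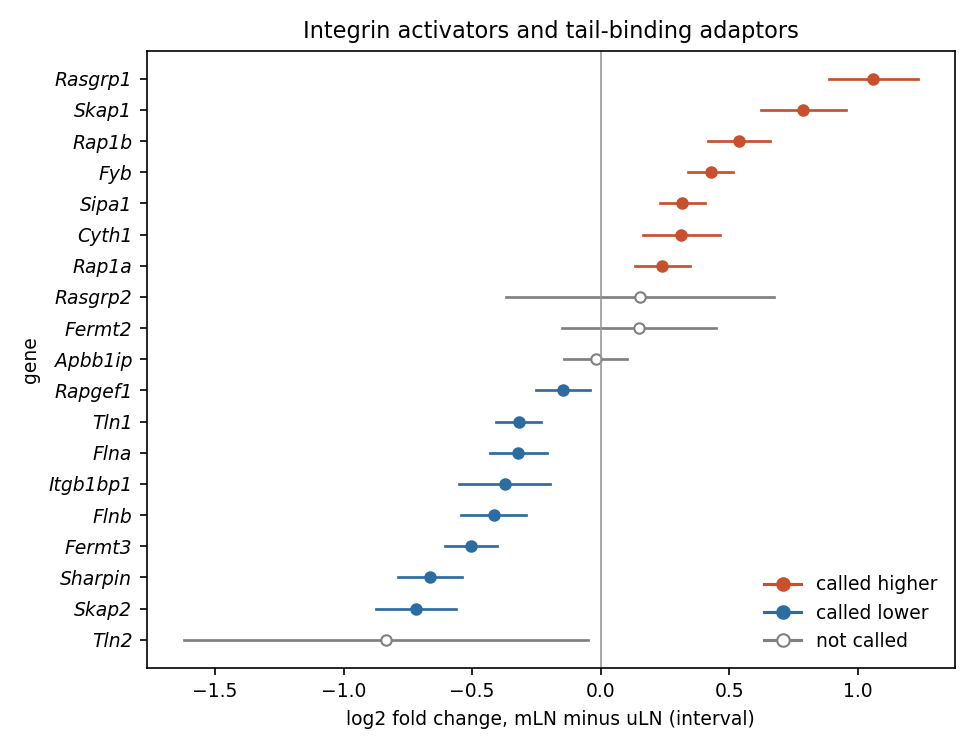
Log2 fold change (mLN minus uLN) of 19 tested integrin activators and tail-binding adaptors with unadjusted 95% intervals. Red marks 7 genes called higher, blue 8 called lower and open grey 4 not called, and Tln1, Fermt3 and both filamin genes lie on the lower side.

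In the list of focal adhesion and integrin signalling genes 10 of 27 tested members rose and 10 fell, with a median log2 change of -0.06. Over all tested genes 33.2% were called higher and 34.2% lower. Vcl, vinculin, which links talin to actin, rose 2.53-fold from 201 ± 3.75 to 510.2 ± 79.2 CPM (SD, n = 3). Parvb, beta parvin, which binds integrin-linked kinase, rose 1.53-fold. Dock2, a Rac activator of blood cells, fell 2.02-fold from 456 ± 13.8 to 226 ± 10.4 CPM (SD, n = 3). Tns3, tensin 3, which binds beta tails, fell 1.89-fold, and Rsu1, a partner of the integrin-linked kinase complex, fell 1.70-fold. Zyx, zyxin, the most abundant of the list in CPM, fell 1.22-fold.

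Integrin ligands were measured in the same libraries. Of 12 tested members 4 rose and 2 fell, with a median log2 change of 0.47, where 33.2% and 34.2% of all tested genes did. The laminin chains Lama5 and Lamc1, which form laminins bound by alpha 6 integrins, rose 3.95-fold and 1.71-fold. Lama5 measured 56.4 ± 0.582 CPM in uLN and 223 ± 7.44 in mLN (SD, n = 3). Icam1, a counter-receptor of beta 2 integrins, rose 2.08-fold, whereas Icam2, another, fell 1.90-fold. Vwf, von Willebrand factor, a ligand of alpha IIb beta 3, fell 2.11-fold from 317 ± 10.6 to 151 ± 18.8 CPM (SD, n = 3). Vcam1, the endothelial ligand of alpha 4 beta 1, had 1 to 10 counts per library and was not tested. Col1a1 is also on this list, and fibroblast markers, which include it, summed to 3.73 to 13.1 CPM in uLN and to 112, 12.5 and 25.8 CPM in mLN replicates 1, 2 and 3. Col1a1 rose 3.97-fold, and 2.08-fold without mLN replicate 1, and its call was lost without uLN replicate 3 (adjusted p = 0.0551, edgeR). Fibroblasts carry Itgb1 and Itga5, and the part of these cells in the rise of both was not tested.

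Of other adhesion receptors 4 of 10 tested members rose and 2 fell, with a median log2 change of 0.02. The shares over all tested genes were 33.2% higher and 34.2% lower. Cadm1, the mast cell adhesion molecule SynCAM, fell 2.32-fold from 50.9 ± 1.68 to 21.9 ± 1.20 CPM (SD, n = 3). Alcam, which binds CD6, fell 2.21-fold. Cd44, the hyaluronan receptor, rose 1.90-fold from 47.5 ± 4.99 to 90.0 ± 6.22 CPM (SD, n = 3), and the tetraspanin Cd9, which associates with beta 1 integrins, rose 1.19-fold. F11r (JAM-A) rose 5.10-fold on 53.41 counts in mLN replicate 1 against 12.12 and 15.17 in mLN replicates 2 and 3, and 2.64-fold without mLN replicate 1. Pecam1 was the most abundant in CPM and was not called (log2 change of 0.05, 95% interval from -0.05 to 0.15).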

How the data were processed

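What the authors deposited is a table of estimated counts, 1 row per gene and 1 column per library. Between 32.2% and 32.8% of its values are not whole numbers, so they are expected counts, and they were rounded for the tests. Reads were handled with TopHat, cutadapt and FastQC on GRCm38, per the submitters' processing notes, which give no versions. The counting tool and its use of strand is not given in the sources used here. Of 17891 rows 1 names no gene and was left out. A library's total limits precision, as 3 counts correspond to 0.164 to 0.172 CPM.

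edgeR 4.0.16 in R 4.3.3 (quasi-likelihood test, TMM, default filter) compared mLN with uLN over all 6 libraries. It was also run on simulated data, which had far fewer changed genes than were called here and so cannot speak to the share called. The standard error of a log2 change is its size over the square root of F. Exon lengths came from GENCODE M21 and promoters from RefSeq, both GRCm38. The members and lists were chosen with earlier results of these data known, and so no list was tested. Named genes were all members, all other tested integrin chains, up to 5 called genes of each list by adjusted p and its most abundant member, and, of each marker list, the most abundant and the most changed member. Others named in the text were chosen after their values were seen. Alternatives were other scaling (RLE, upper quartile, library size), no filter, DESeq2 1.42.0, a replicate block, a set dispersion, unrounded counts, another length and each library left out.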

Additional observations from a re-analysis of the deposited data

How the results depend on the processing

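Over 14 alternatives, the 10 integrins kept their direction in 140 of 140 values and their side of the threshold in 132. The 8 losses were 4 for Itga2 and 1 each for Itga4, Itga5, Itgb3 and Itgb7 with the coefficient of variation set to 0.2, where adjusted p was 0.0565 (Itga2), 0.102, 0.126, 0.304 and 0.313. At that setting 2145 genes were called higher and 1913 lower, against 4219 and 4347, and 3 and 2 of the members, because the assumed spread is larger. Without each library in turn 3843 to 4403 genes were higher and 4017 to 4492 lower, 6 members were higher in each fit and 3 to 4 lower. The replicate block gave 4122 higher and 4263 lower and changed no call of the 10 members. Same-numbered libraries did not deviate together (correlations of 0.0363, -0.133 and 0.00914). With 3 libraries a group this cannot show whether the numbers pair the samples, which the labels do not say. Among the other named genes, 683 of 713 values kept call and direction, 24 lost the call, 1 gained it and 5 changed sign, none of these 5 called in any fit. With 1 library left out the log2 change ran from -0.15 to 0.045 for Itga7, from -0.32 to 0.93 for Itgb4, from -0.38 to 0.019 for Itgb5 and from -0.23 to 0.47 for Cd22, which were not called. With the longest transcript as length, the uLN and mLN shares of alpha chain reads were 89.7% and 76.0% for Itga2b, 3.17% and 6.65% for Itga5, 2.78% and 5.93% for Itga4, 0.777% and 3.27% for Itga6, 0.730% and 0.516% for Itgae, and 0.119% and 0.113% for Itga2, and the uLN shares of beta chain reads were 9.81% for Itgb1 and 4.74% for Itgb3. Among the 10 members, depth limits Itga2 most, at 36 to 92 counts per library.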

Other observations

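Some matrix ligands of integrins differed between the uLN libraries, in genes chosen after their values were seen. Fn1, fibronectin, had 11, 130 and 160 counts in uLN replicates 1, 2 and 3 and 176, 227 and 175 in mLN. Tnc, tenascin C, had 2, 35 and 35 counts in uLN and 11, 7 and 1 in mLN. Spp1, osteopontin, had 698, 1254 and 1211 counts in uLN and 1140, 1180 and 1253 in mLN. All 3 were lowest of the uLN group in replicate 1, and none was called by edgeR (adjusted p = 0.142 for Fn1, 0.0572 for Tnc, 0.465 for Spp1). Among the integrin chains, Itga3 had 3, 10 and 11 counts and Itgb5 had 52, 75 and 70 in the same libraries. The members Itgb1 (122, 126 and 129 CPM) and Itgb2 (48.2, 56.0 and 52.1 CPM) were also lowest in uLN replicate 1. The other members were not, among them Itga5 at 71.8, 73.3 and 70.7 CPM. Macrophage and dendritic cell markers summed to 138, 186 and 163 CPM in these libraries.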
